A study of Mus musculus with 4 samples.

Results

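Macrophages and osteoclasts of the bone marrow were followed through 34 genes that name these cells or their work. The list is a set of gene symbols, and no threshold on a measured value decides membership, but it was drawn up with earlier results of these data known. It held 26 macrophage genes (C1q subunits, scavenger and surface receptors, receptors for dead cells, heme and iron handling, Fc receptors and adaptors, lysozymes) and 8 osteoclast genes, out of 37310 genes in the annotation used. Counts were summed per gene and library, and 28 of the 34 genes had more than 2 counts over the 4 libraries, as did 22214 genes in all. Only those genes were tested.

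Marrow RNA of wild-type C57Bl/6 mice was sequenced at 3 months (mature) and at 24 months (elderly), in 2 libraries per age. No other treatment or allele separated the groups. The sample labels describe whole marrow, whereas the study's methods describe cells of male mice sorted to lack the lineage markers Ter119, CD31 and CD45 and to carry the leptin receptor (LEPR), with the RNA of 3 or 4 mice pooled per library. Libraries are named here by age and replicate. The sample titles name single mice, which is at odds with pooling. With n = 2 libraries per age, SDs and p-values measure how libraries differed, which for pools is not how mice differed. In the sort described, cells with CD45, the surface protein of nearly all blood cells, would have been removed, so macrophages were not the cells sought. Libraries held between 10472117 and 15650518 counts. Replicates differed by more than counting error (chi-square per degree of freedom 16 for the mature pair and 34.2 for the elderly pair).

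Resident marrow macrophages engulf dead cells and the nuclei that erythroblasts expel, break down the heme of old red cells and return its iron. They make C1q, the recognition part of the classical complement pathway, whose A, B and C chains are needed together in each molecule. Osteoclasts come from the same monocytic lineage, fuse into large cells under the cytokines M-CSF and RANKL, and dissolve bone with acid and the protease cathepsin K. Many genes named after these cells are also used by others: neutrophils and monocytes transcribe lysozyme and Tyrobp, and stromal cells can transcribe ferroportin, heme oxygenase, Mertk and cathepsin K.

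Of the 34 genes, 6 rose with age and 0 fell, at an adjusted p under 0.05 (edgeR quasi-likelihood test, Benjamini-Hochberg over all 22214 genes tested). At an unadjusted p under 0.05, 9 were higher and 0 lower, against 2428 of all 22214 genes tested in either direction. DESeq2 and the exact test also called 0 lower. The 6 were C1qa, C1qb, C1qc, Mrc1, Tyrobp and Lyz2, all of them macrophage genes. They make up 6 of 28 tested, whereas 1.94% of all genes tested were called higher and 0.423% lower. Slc40a1, Hmox1 and Ctsk, which had high counts, did not pass the test. The median log2 fold change (elderly over mature) was 0.99 over the 23 macrophage genes tested and 0.11 over the 5 osteoclast genes tested, against −0.0059 over all genes tested. With genes not seen in mature libraries set at the bound that 3 counts allow, the macrophage median was 0.70. In 12 of the 28 members tested both elderly libraries lay above both mature ones and in 1, Cd68, they lay below, against 22.0% and 18.9% of all genes tested. Vsig4, Marco, Spic and Atp6v0d2 were counted only in elderly libraries and were thus tested only through them, so the medians and counts over tested genes are descriptions. Leaving out either elderly library, which leaves that age with 1 library assumed to vary like the others, took the 6 calls to 0. Each call below rests on both elderly libraries in that sense. In those fits 0 of all genes were called by edgeR, with 1465 genes (3 of the members) at an unadjusted p under 0.05 without elderly replicate 1, and 1627 genes (0 of the members) without elderly replicate 2.

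How much of each gene could be counted differed widely. The deposited counts hold no reads on bases shared by several annotated transcripts, so that a gene with many overlapping isoforms keeps few countable bases. Over all 25621 transcripts without a base of their own, 0 had any count. Of the 34 genes, 12 kept less than 10% of their longest coding transcript in the best-covered coding transcript: Dcstamp, Fcgr1, Axl, Oscar, Calcr, Cd163, Spic, Emr1, Trem2, Siglec1, Aif1 and Acp5. Dcstamp, which encodes a receptor of osteoclast fusion, kept 0 bases and Fcgr1, the high-affinity IgG receptor, kept 21. Together with Cd163 (83 countable bases), Oscar (18) and Calcr (101), these 2 genes were at 0 counts in every library, and the 5 zeros say little about the genes' transcription. All 3 C1q genes, Mrc1, Tyrobp, Lyz2, Ctsk and Slc40a1 could be counted over most or all of their length.

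**Figure D1:**
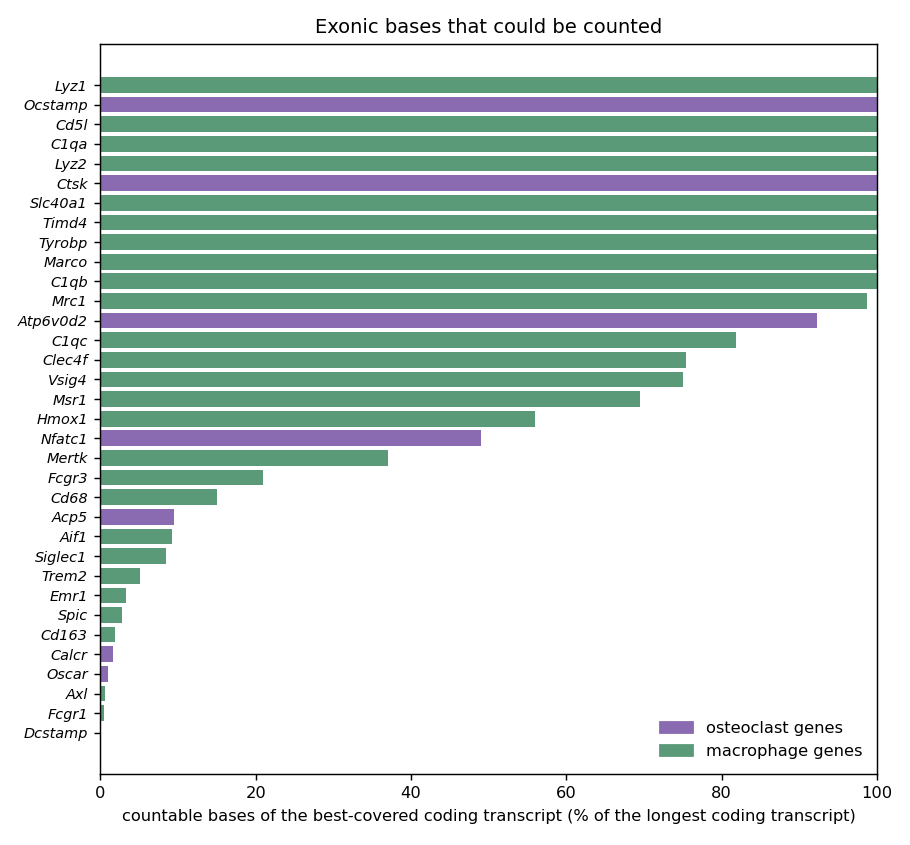
Each bar gives, for 1 of the 34 genes, the exonic bases of its best-covered coding transcript that no other transcript shares, in percent of the length of the gene's longest coding transcript (green, macrophage genes and purple, osteoclast genes). Bars of 12 genes end below 10%, among them 4 of the 8 osteoclast genes, and Dcstamp is at 0.

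C1q rose most among the members counted in both ages. C1qa had 1.82 and 0.0862 CPM (counts scaled to library size with TMM factors) in mature replicates 1 and 2, and 7.84 and 12.6 CPM in elderly replicates 1 and 2. C1qb had 2.16 and 0.345 CPM at 3 months, then 9.20 and 17.2 CPM at 24 months. C1qc had 1.21 and 0.172 CPM at 3 months, then 4.33 and 8.005 CPM at 24 months. For each chain both elderly libraries lay above both mature ones, elderly replicate 2 was the highest, and mature replicate 2 was the lowest, with 1, 4 and 2 counts. C1qa rose 10.7-fold (log2 fold change 3.41, SE 0.69, adjusted p = 0.0242, edgeR quasi-likelihood test). C1qb rose 10.5-fold (log2 fold change 3.39, SE 0.59, adjusted p = 0.0111, same edgeR test). C1qc rose 8.85-fold (log2 fold change 3.15, SE 0.66, adjusted p = 0.0280, same edgeR test). The size of the change leaned on the mature libraries. Without mature replicate 1 the log2 fold changes of C1qa, C1qb and C1qc were 6.75, 5.23 and 5.10, and without mature replicate 2 they were 2.47, 2.59 and 2.33, all still called. DESeq2 (adjusted p = 0.324) and the robust edgeR fit (adjusted p = 0.166) did not call C1qa.

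The share of each chain among the C1q counts differed between ages by less than its counting interval. Of all C1q counts, C1qa made up 32.8% in mature libraries (95% Wilson interval 22.8 to 44.7%, 22 of 67 counts) and 34.3% in elderly ones (31.1 to 37.6%, 280 of 817 counts). C1qb made up 43.3% (32.1 to 55.2%) and 44.8% (41.4 to 48.2%). C1qc made up 23.9% (15.3 to 35.3%) and 20.9% (18.3 to 23.9%). For every chain the elderly interval lay within the mature one, and the intervals cover counting error only.

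The 3 genes lie side by side on the minus strand of chromosome 4 (mouse build NCBIM37, mm9), with C1qb at chr4:136436044-136442102, C1qc at chr4:136445719-136448980 and C1qa at chr4:136451832-136454718. Their promoters are shown because these members rose and because PU.1, the myeloid master factor, is known to act on macrophage genes. Each run covers 250 bases before and 50 after the start of the best-counted coding transcript, read 5′ to 3′ on the gene's strand from the NCBIM37 genome with GENCODE M1 starts. Capitals mark exact matches, on either strand, to 4 motifs searched in all promoters: GAGGAAGT (PU.1), TCATGTG (MITF), GGAAAA (NFAT) and TGACNNNGC (the core of the antioxidant response element). The windows are chr4:136454669-136454968 (C1qa), chr4:136442053-136442352 (C1qb) and chr4:136448931-136449230 (C1qc).
C1qa: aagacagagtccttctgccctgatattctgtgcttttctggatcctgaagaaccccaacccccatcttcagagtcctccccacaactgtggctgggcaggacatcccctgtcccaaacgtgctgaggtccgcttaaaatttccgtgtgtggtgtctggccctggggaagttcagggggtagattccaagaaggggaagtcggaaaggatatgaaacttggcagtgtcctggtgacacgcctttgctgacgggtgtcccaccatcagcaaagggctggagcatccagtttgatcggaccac
C1qb: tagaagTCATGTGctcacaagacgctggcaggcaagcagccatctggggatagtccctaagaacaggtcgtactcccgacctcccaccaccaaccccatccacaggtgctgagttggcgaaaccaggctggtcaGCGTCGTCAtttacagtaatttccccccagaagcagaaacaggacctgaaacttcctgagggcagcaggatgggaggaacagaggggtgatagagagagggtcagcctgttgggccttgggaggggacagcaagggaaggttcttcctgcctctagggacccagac
C1qc: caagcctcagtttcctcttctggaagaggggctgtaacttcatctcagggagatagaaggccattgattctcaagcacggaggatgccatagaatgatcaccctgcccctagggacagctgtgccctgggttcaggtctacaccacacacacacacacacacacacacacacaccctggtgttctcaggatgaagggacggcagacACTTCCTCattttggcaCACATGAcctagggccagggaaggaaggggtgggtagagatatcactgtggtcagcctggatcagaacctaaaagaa
The PU.1 word stood in C1qc (−44 from the start) as ACTTCCTC, that is on the strand opposite to the gene. It occurs in 3.11% of 22373 coding promoters. The MITF word stood in C1qb (−244) and C1qc (−27), against 3.30% of promoters, and C1qb also held the antioxidant core (GCGTCGTCA at −116, in 12.6% of promoters). C1qa held none of the 4 words in this window. The NFAT word was found in 10 of the 34 member promoters and in 23.0% of all, Mrc1, Lyz2, Ctsk and Atp6v0d2 among the members with it. A match here is a run of letters and no more.

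Among scavenger and pattern receptors only Mrc1 passed the test. Mrc1 encodes the mannose receptor CD206, which takes up glycoproteins and is carried by many tissue macrophages and by sinusoidal endothelium. It had 9.60 and 5.78 CPM at 3 months, then 18.8 and 39.0 CPM at 24 months, without overlap. Mrc1 rose 3.77-fold (log2 fold change 1.91, SE 0.38, adjusted p = 0.0209, edgeR quasi-likelihood test). Elderly replicate 2 held the highest value, and without it the log2 fold change was 1.29. The call was also lost without mature replicate 2 (adjusted p = 0.0573) and under edgeR's exact test with the dispersion set to 0.2 (adjusted p = 0.229). Endothelial markers, which share Mrc1 with macrophages, summed to 25.96 and 39.8 CPM in mature and 46.6 and 45.6 CPM in elderly libraries, with 1 of 7 tested called (Flt4, log2 fold change 1.72, not called by the exact test) and Tek at 0 in every library. Their part in the Mrc1 result was not tested.

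Cd68, a glycoprotein of endosomes and lysosomes, was the only member with both elderly libraries below both mature ones, at 10.6 and 17.4 CPM against 9.74 and 8.46 CPM. The log2 fold change of −0.62 (SE 0.32) did not pass (adjusted p = 0.532, edgeR). Only 211 bases of Cd68 could be counted. Cd5l, a secreted protein of resident macrophages, had 2.94 and 0.690 CPM at 3 months and 0.901 and 4.88 CPM at 24 months, which overlapped. Msr1, the class A scavenger receptor, had 0.865 and 0.690 CPM against 1.53 and 0.846 CPM and also overlapped. Clec4f, a C-type lectin known from Kupffer cells of the liver, had 5 and 2 counts in mature and 4 and 2 in elderly libraries. The complement receptor gene Vsig4 was seen only at 24 months, with 4 and 2 counts, and Marco only in elderly replicate 1, with 8 counts. Neither passed the test (adjusted p = 0.601 and 0.584, edgeR). The mature zeros allow 3 counts per library, and against these the bound was 0.947-fold for Vsig4, which bounds no rise. For Marco it was 1.39-fold, resting on elderly replicate 1 alone, with 0 counts in elderly replicate 2. Of the 8 receptors in this group, 1 rose, 6 were not called and Cd163, the haptoglobin-hemoglobin receptor, was not tested.

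The surface markers most used to name macrophages were close to the limit of counting. Emr1, which encodes F4/80, had 2 and 0 counts at 3 months and 2 and 5 at 24 months over 106 countable bases. Siglec1 (CD169), an adhesion receptor of macrophages that hold blood-forming niches, had 2 and 2 counts against 4 and 1. Aif1 (IBA1), an actin-binding protein, had 1 and 2 counts against 4 and 8, of which only 3 of 15 in all 4 libraries fell in coding transcripts. The pooled elderly-to-mature ratio was 3.06 for Emr1 (95% counting interval 0.583 to 30.2) and 3.50 for Aif1 (0.945 to 19.3), and both intervals include no change. All 3 genes kept under 10% of a coding transcript, so these levels cannot be set against those of C1q.

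Receptors for dead cells split by level. Mertk, a kinase that binds phosphatidylserine through Gas6 and protein S, had 66.5 and 53.5 CPM at 3 months and 70.6 and 76.7 CPM at 24 months. The elderly libraries lay above the mature ones, but the log2 fold change of 0.30 (SE 0.21) did not pass (adjusted p = 0.674, edgeR). Timd4, a phosphatidylserine receptor of long-lived resident macrophages, had 4 and 0 counts at 3 months and 14 and 16 at 24 months. Its groups did not overlap, and its log2 fold change of 2.66 carried an SE of 1.13 (adjusted p = 0.389, edgeR). Axl, a kinase related to Mertk, had 2.86 and 2.84 CPM against 4.06 and 2.73 CPM, and only 15 of its 153 counts came from coding transcripts. Of the 13 tested genes that supply ligands, partners or machinery to these receptors, 1 rose, Stab1 (log2 fold change 1.52, adjusted p = 0.0271, edgeR), a scavenger receptor of macrophages and sinusoidal endothelium, and 0 fell. The exact test with the dispersion set to 0.2 called 0 of the 13.

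Heme and iron recycling genes were among the highest members and did not pass the test (0 of 3 called by edgeR, DESeq2 or the exact test, 1 at an unadjusted edgeR p under 0.05, Spic). Slc40a1, the iron exporter ferroportin, had 693 and 636 CPM at 3 months and 530 and 734 CPM at 24 months. Its elderly values enclosed the mature ones, and the log2 fold change was −0.07 (SE 0.20, adjusted p = 0.949, edgeR). Hmox1, the heme-degrading enzyme heme oxygenase 1, had 103 and 86.0 CPM in mature and 87.1 and 123 CPM in elderly libraries (log2 fold change 0.16, SE 0.22, adjusted p = 0.885, edgeR). Both genes were lower in elderly replicate 1 than in elderly replicate 2, by more than the mature replicates differed. Spic, the transcription factor of iron-recycling macrophages, had 0 counts in 3 libraries and 16 in elderly replicate 2, 0 of them in a coding transcript. Of 18 partner genes of heme and iron handling, all tested, edgeR and DESeq2 called 0, with 3 higher and 3 lower at an unadjusted p under 0.05. LEPR+ stroma markers summed to 30171 and 30783 CPM at 3 months and 18817 and 26617 CPM at 24 months. Elderly replicate 1 was the lowest for this sum and for Slc40a1, whereas Hmox1 was lowest in mature replicate 2. Elderly replicate 2 was the highest for Slc40a1 and Hmox1 but lay below both mature libraries for the stroma sum. Which cells gave the Slc40a1 and Hmox1 counts was not tested.

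Tyrobp encodes DAP12, the adaptor that passes on signals of TREM2 and other receptors through its ITAM motif. It had 22.1 and 12.2 CPM at 3 months and 47.3 and 47.1 CPM at 24 months, the latter nearly equal and far above the former. Tyrobp rose 2.75-fold (log2 fold change 1.46, SE 0.28, adjusted p = 0.0204, edgeR quasi-likelihood test). The call was lost without mature replicate 2 (log2 fold change 1.07, adjusted p = 0.136) and under the exact test with the dispersion set to 0.2 (adjusted p = 0.522). Its receptor partner Trem2 had 4, 2, 6 and 2 counts in mature 1, mature 2, elderly 1 and elderly 2, with 0 in coding transcripts. Fcgr3, the low-affinity IgG receptor, had 2 counts in all and was not tested. Among 14 tested genes of ITAM and Fc receptor signalling, 3 rose and 0 fell: Plcg2 (log2 fold change 1.28), a phospholipase of the pathway, Fcgr4 (1.96), an IgG receptor of monocytes, macrophages and neutrophils, and Trem1 (1.38), a DAP12-coupled receptor of neutrophils and monocytes. The exact test with the dispersion set to 0.2 called 0 of the 14. Fcer1g, the sister adaptor of Tyrobp, had a log2 fold change of 1.00 (SE 0.33) that did not pass (adjusted p = 0.206, edgeR).

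Lyz2, the lysozyme of myeloid cells, was the highest member per countable kilobase. It had 500 and 312 CPM at 3 months and 767 and 842 CPM at 24 months, without overlap. Lyz2 rose 1.98-fold (log2 fold change 0.99, SE 0.23, adjusted p = 0.0460, edgeR quasi-likelihood test). This call was the closest to the threshold and was lost without mature replicate 1 (adjusted p = 0.0975), without mature replicate 2 (adjusted p = 0.636), with edgeR's own filter on low counts (adjusted p = 0.0575) and under the exact test with the dispersion set to 0.2 (adjusted p = 1). Lyz1, the lysozyme of Paneth cells, lies next to Lyz2 on chromosome 10, and their annotated transcripts are 95.8% identical over 1265 aligned bases. Lyz1 had 12, 4, 4 and 32 counts in mature 1, mature 2, elderly 1 and elderly 2, and made up 0.170% of lysozyme counts at 3 months (95% Wilson interval 0.105 to 0.276%) and 0.168% at 24 months (0.121 to 0.232%). Since 24.2% of 40-base windows of Lyz1 also occur in Lyz2 and the handling of reads with several matches is not given in the sources used here, Lyz1 counts are uncertain.

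**Figure D2:**
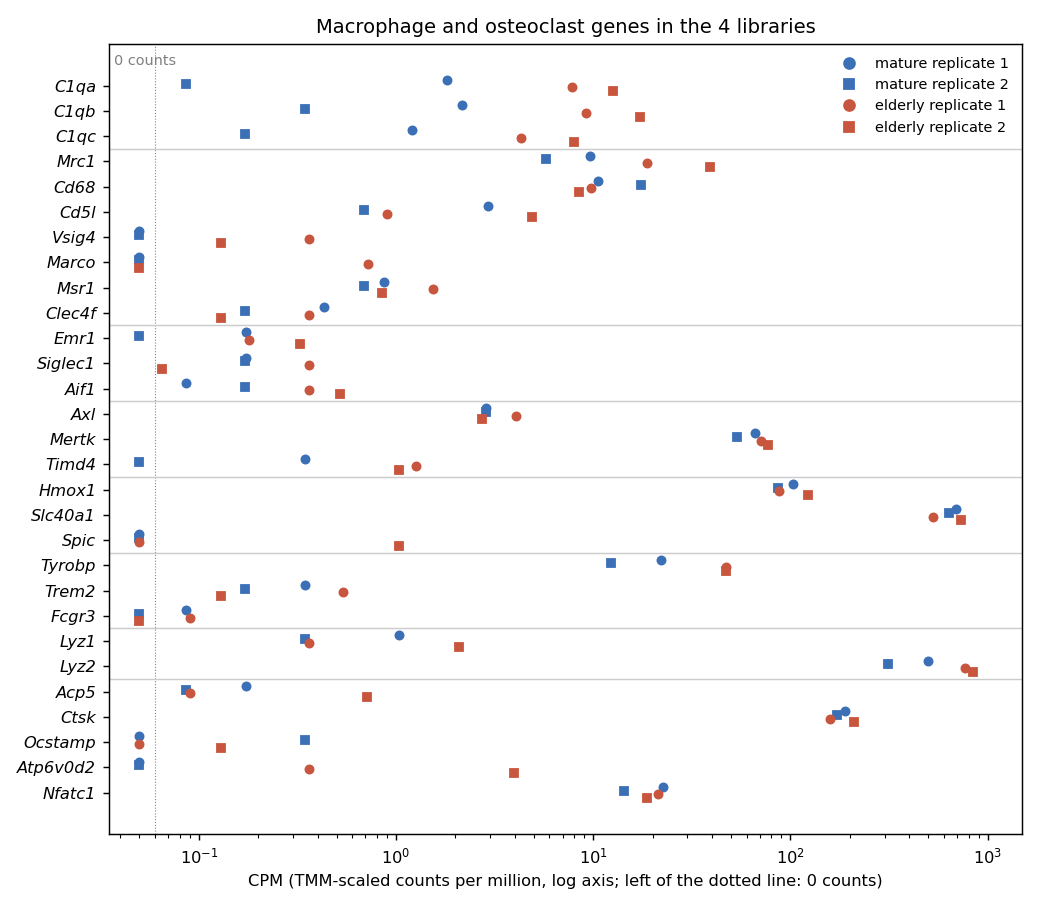
Points give the CPM of 29 genes in each library on a log axis (circles, replicate 1; squares, replicate 2; blue, mature and red, elderly), with libraries at 0 counts drawn left of the dotted line; the 5 genes at 0 in all libraries are not drawn. The C1q genes, Mrc1, Tyrobp and Lyz2 have both elderly points to the right of both mature points, whereas those of Slc40a1, Hmox1 and Ctsk overlap.

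Among the osteoclast genes, 5 of 8 were tested and edgeR called 0, with 1 (Atp6v0d2) at an unadjusted p under 0.05. DESeq2 and the exact test each called 1, the same gene. Ctsk, which encodes the collagen-degrading protease cathepsin K, had 189 and 172 CPM at 3 months and 159 and 210 CPM at 24 months, which enclosed the mature ones. Its log2 fold change was 0.04 (SE 0.20, adjusted p = 0.976, edgeR). Nfatc1, the master transcription factor of osteoclast formation, had 22.6 and 14.4 CPM against 21.2 and 18.7 CPM (log2 fold change 0.11, SE 0.28, adjusted p = 0.942, edgeR). All Nfatc1 counts fell in 1 of its 4 transcripts, since the others have no countable base.

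Genes closer to the mature osteoclast had low or no counts, and Acp5, Dcstamp, Oscar and Calcr also had few countable bases. Acp5, the tartrate-resistant acid phosphatase used to stain osteoclasts, had 2 and 1 counts at 3 months and 1 and 11 at 24 months over 339 countable bases. Ocstamp, needed for fusion of osteoclast precursors and countable over its whole length, had 0 and 4 counts against 0 and 2. Dcstamp, its partner in fusion, Oscar, a co-stimulatory receptor, and Calcr, the calcitonin receptor, were at 0 with few or no countable bases. Atp6v0d2, a subunit of the proton pump that acidifies the resorption pit, had 0 and 0 counts at 3 months, then 4 and 61 at 24 months. Against 3 counts per mature library Atp6v0d2 was at least 8.36-fold higher in the elderly group, yet 61 of its 65 counts came from elderly replicate 2. Its adjusted p of 0.0508 (edgeR quasi-likelihood test) lay just above the threshold, and it was called by DESeq2 (adjusted p = 0.0053), by the exact test (0.000116) and when no TMM factors were used (0.0348). Elderly replicate 2 was also the library with the most Acp5, Spic and Lyz1 counts.

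**Figure D3:**
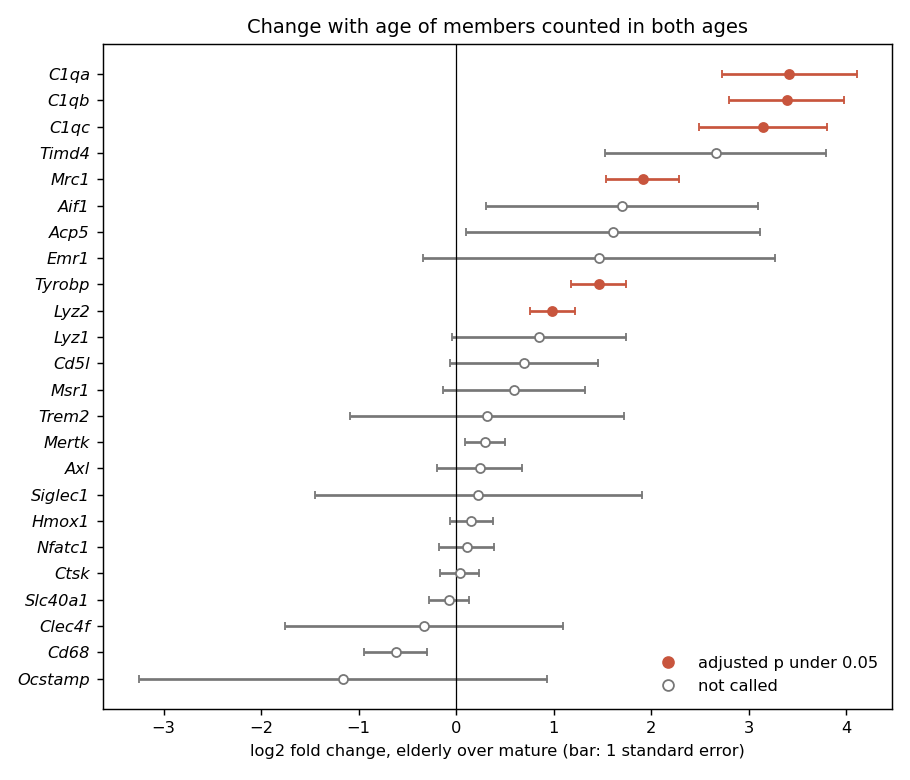
The log2 fold change (elderly over mature) of the 24 tested genes counted in both ages is drawn with a bar of 1 standard error (filled red, adjusted p under 0.05; open grey, not called). The 3 C1q genes stand at 3.15 to 3.41, Mrc1, Tyrobp and Lyz2 at 0.99 to 1.91, and the bars of Ctsk and Slc40a1 are short and cross 0.

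Levels per kilobase of countable coding bases were computed for the 24 genes with at least 200 such bases. Siglec1 and Acp5 among them kept under 10% of a coding transcript and Fcgr3 had 2 counts, so their levels cannot be set against the others. The Cd68 level rests on 211 bases. In the mature libraries the order was led by Lyz2 (309 ± 101 CPM per kilobase, SD, n = 2), Slc40a1 (197 ± 12.0), Ctsk (122 ± 8.03), Hmox1 (90.3 ± 10.6), Cd68 (66.3 ± 23.0), Mertk (37.7 ± 5.78) and Tyrobp (30.4 ± 12.3). Among these 7 genes, Slc40a1 and Ctsk, and Ctsk and Hmox1, were neighbours that differed by more than the sum of their SDs, and the other neighbours did not. In the elderly libraries Lyz2 stood at 613 ± 40.4, Slc40a1 at 187 ± 42.7, Ctsk at 125 ± 24.0, Hmox1 at 101 ± 26.7 and Tyrobp at 83.7 ± 0.264 CPM per kilobase, and among these 5 genes only Lyz2 stood apart from its neighbour by more than the sum of their SDs. The C1q genes stayed far below, at 0.702 to 1.15 CPM per kilobase in mature and 6.19 to 12.1 in elderly libraries. Timd4 (0.530 ± 0.0719), Vsig4 (0.228 ± 0.152) and Marco (0.182 ± 0.257) were under 1 CPM per kilobase even in elderly libraries.

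The growth factors that sustain both cell types, and their receptors, had 0 calls by edgeR, whereas 1 transcription regulator of the same list rose and 1 fell. At an unadjusted p under 0.05 the whole list had 4 genes higher and 3 lower, and DESeq2 also called 1 higher and 1 lower. Csf1r, the M-CSF receptor that marks macrophages and osteoclast precursors, had 1.04 and 2.50 CPM in mature and 1.98 and 1.56 CPM in elderly libraries, with 636 of 4701 bases countable. Its ligand gene Csf1, made by stromal cells, had 94.1 and 86.4 CPM against 58.6 and 82.0 CPM, and neither passed the test. Of 17 tested genes of this axis and of macrophage transcription factors, Irf8, which directs monocyte development and restrains osteoclasts, rose (log2 fold change 1.07, adjusted p = 0.0206, edgeR) and Id3, an inhibitor of helix-loop-helix factors, fell (log2 fold change −0.82, adjusted p = 0.0408, edgeR). Of 21 osteoclast signalling genes, 3 rose and 0 fell. These were Irf8 again, Tnfrsf11b, the RANKL decoy osteoprotegerin (log2 fold change 1.79, adjusted p = 0.0293, edgeR), and Prdm1, a repressor used in osteoclasts and plasma cells. Prdm1 had 0 counts in both mature libraries and was at least 14.2-fold higher at 24 months. It was thus tested only through the elderly libraries, so the count of 3 is a description. Under the exact test with the dispersion set to 0.2, 1 call of the osteoclast signalling list and 0 of the growth factor and transcription factor list were left. Tnfrsf11b and Irf8 are known to hold osteoclast formation back, and RANKL itself (Tnfsf11) had 1.12 and 4.48 CPM against 4.87 and 4.17 CPM, which overlapped.

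Of 18 tested genes of the resorption machinery, 2 rose and 0 fell, Car2 (log2 fold change 2.34, adjusted p = 0.00242, edgeR), a carbonic anhydrase also abundant in erythroid cells, and Mmp9 (1.67, adjusted p = 0.00209, edgeR), a gelatinase also abundant in neutrophils. Of 15 tested complement genes other than C1q, 1 rose, C3 (log2 fold change 1.07, adjusted p = 0.0368, edgeR), the central component of the cascade, at 3210 and 3103 CPM in mature and 8344 and 4941 CPM in elderly libraries. The exact test with the dispersion set to 0.2 called 0 genes of either list, so the Car2, Mmp9 and C3 calls were lost. Of 19 tested lysosomal genes shared by many cells, edgeR called 0 (1 at an unadjusted p under 0.05) and DESeq2 called 1, with a median log2 fold change of −0.10.

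Summed markers of neutrophils, monocytes and erythroid cells were higher at 24 months, as were genes shared by all blood cells. The B-lineage and the T and NK sums, given below, were higher as well. Genes shared by all blood cells (8 genes) summed to 133 and 65.8 CPM in mature and 301 and 261 CPM in elderly libraries, with 3 of 8 called higher (Rac2, Cd53 and Itgb2). Ptprc, which encodes CD45, had 0.346 and 0.0862 CPM against 1.08 and 0.521 CPM over 152 countable bases and was not called. Neutrophil markers summed to 2254 and 1285 CPM against 4862 and 4669 CPM, with 8 of 17 tested called higher and 0 lower, led by Elane, Ctsg, Cebpe and Ngp. Monocyte markers summed to 156 and 91.6 CPM against 295 and 267 CPM, with 3 of 14 called higher (Ifitm6, Cx3cr1 and Ly6c2) and Treml4 at 0. Erythroid markers summed to 250 and 99.5 CPM against 874 and 855 CPM, with 5 of 9 called higher, among them Rhag, Car1 and Klf1. With the dispersion set to 0.2, the exact test called 0 of the shared blood cell genes, 1 neutrophil, 0 monocyte and 4 erythroid genes. In the lists of shared, neutrophil, monocyte and erythroid genes, mature replicate 2 was the lowest library, as it was for C1q, Mrc1, Tyrobp and Lyz2. The order of the elderly libraries differed. These lists were highest in elderly replicate 1, whereas C1q, Mrc1 and Lyz2 were highest in elderly replicate 2 and Tyrobp was nearly equal in both. More cells of a type and more RNA per cell cannot be told apart in such bulk libraries, and the part of other blood cells in these results was not tested.

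Dendritic cell markers summed to 135 and 160 CPM in mature and 143 and 155 CPM in elderly libraries, with 0 of 9 tested called by edgeR or DESeq2 (1 at an unadjusted p under 0.05), and Itgax, Cd209a and Cd74 were at 0. Eosinophil markers summed to 343 and 26.8 CPM against 146 and 147 CPM, and megakaryocyte markers to 24.3 and 232 CPM against 102 and 174 CPM, both with overlap. These lists (6 tested in each) had 0 calls by edgeR and DESeq2 and 0 at an unadjusted p under 0.05. T and NK markers summed to 4.33 and 6.03 CPM in mature and 19.0 and 10.1 CPM in elderly libraries, without overlap. This list (6 tested) had 0 calls by edgeR with 4 higher at an unadjusted p under 0.05. DESeq2 called 1 higher and the exact test with the dispersion set to 0.2 called 2 higher. B-lineage markers summed to 850 and 718 CPM in mature and 1320 and 1405 CPM in elderly libraries, also without overlap. Of these markers, 2 of 10 were called higher, Ighm (log2 fold change 3.88) and Rag1 (1.23). LEPR+ stroma markers had 0 of 11 called by edgeR or DESeq2, with 3 lower at an unadjusted p under 0.05. Osteoblast markers had 2 of 10 called higher (Phex and Col1a1) and 1 lower (Ibsp) by edgeR. DESeq2 called 2 higher and 0 lower, and the exact test called 0 in either direction. The osteoblast markers summed to 7140 and 6501 CPM in mature and 2296 and 4204 CPM in elderly libraries, lower at 24 months without overlap.

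Set against these lists, the called members behaved in different ways. Per 100 CPM of neutrophil markers, Tyrobp had 0.979 and 0.953 CPM in mature and 0.974 and 1.01 CPM in elderly libraries, a nearly constant value. Lyz2 had 22.2 and 24.3 CPM per 100 CPM of neutrophil markers in mature and 15.8 and 18.03 in elderly libraries, lower at 24 months in both. Mrc1 had 0.426 and 0.449 against 0.386 and 0.836, so that only elderly replicate 2 was raised. For C1q as a sum the values were 0.230 and 0.0470 against 0.439 and 0.808 CPM per 100 CPM of neutrophil markers, with both elderly libraries above both mature ones. Per 100 CPM of the shared blood cell genes, C1q had 3.90 and 0.917 CPM in mature and 7.10 and 14.4 in elderly libraries. These values did not overlap either, and on both scales the C1q value of mature replicate 2 rests on 7 counts. Tyrobp had 16.6 and 18.6 per 100 CPM of the shared genes against 15.7 and 18.02. Mrc1 had 7.21 and 8.78 against 6.23 and 14.9, and Lyz2 had 375 and 474 against 255 and 322. These ratios are descriptions over 4 libraries and were not tested.

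**Figure D4:**
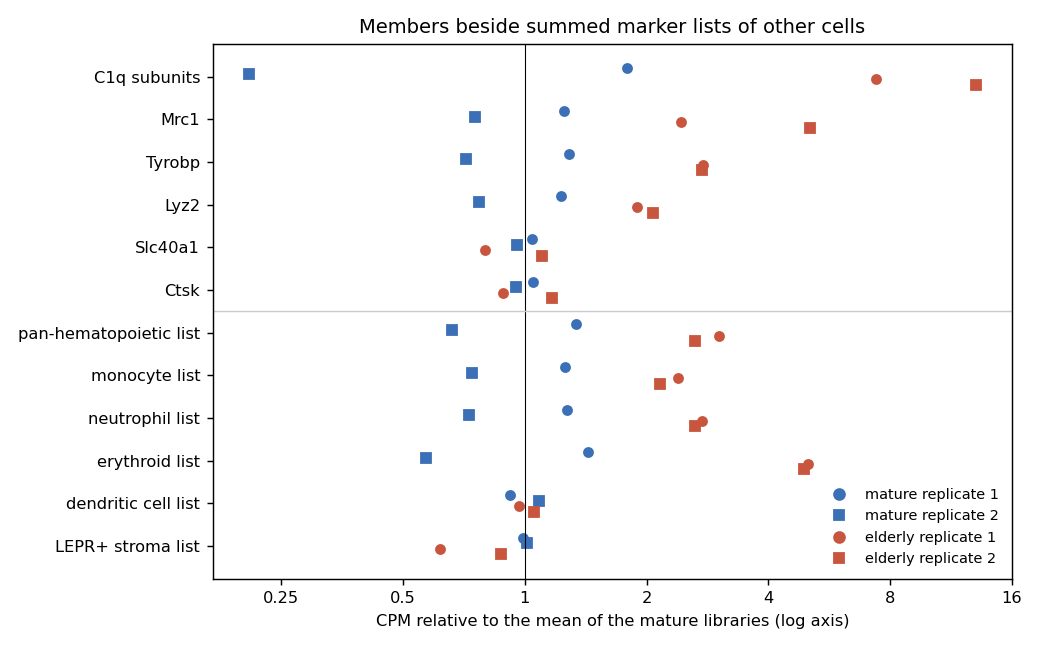
Points give the CPM of members (top) and the summed CPM of marker lists (bottom) in each library, relative to the mean of the mature libraries, on a log axis (circles, replicate 1; squares, replicate 2; blue, mature and red, elderly). The pan-hematopoietic, monocyte, neutrophil and erythroid lists have both elderly points to the right of both mature points, as do C1q, Mrc1, Tyrobp and Lyz2. The order of the elderly libraries differs between these lists and C1q, Mrc1 and Lyz2. The dendritic cell list, Slc40a1 and Ctsk overlap, and the LEPR+ stroma list is lower in both elderly libraries.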

How the data were processed

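A total of 4 libraries of mouse bone marrow RNA were used, 2 per age, grouped by their titles. The authors trimmed adapters (CutAdapt), aligned reads to mm9 (NCBI Build 37) with HISAT2 and deposited raw featureCounts counts per Ensembl transcript, without normalization. Versions, strand setting and the handling of reads with several matches are not given in the sources used here.

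Counts were summed per gene with GENCODE M1 (388 of 95883 transcripts unmatched, at most 0.0888% of counts). Older symbols were used for Ocstamp (4833422F24Rik), Dcstamp (Tm7sf4) and others. Countable bases are exonic bases in exactly 1 annotated transcript on either strand. Genes with more than 2 counts were compared with edgeR 4.0.16 in R 4.3.3: TMM, quasi-likelihood test with trended dispersion, 2-sided, age only, Benjamini-Hochberg over 22214 genes, called under 0.05. The biological coefficient of variation was 0.265. The script was tested on simulated data. The study used edgeR's exact test at a dispersion of 0.2, run here as an alternative beside DESeq2 1.42.0, other filters, scalings and thresholds, and leaving out each library.

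A gene with at most 3 counts in both libraries of an age was taken as not detected there. All 34 genes are named. Values per library are given for those called, detected in 1 age only, or highest in their role group, and called list genes are named, at most 4 per list and direction. Members and lists were chosen with earlier results of these data known. Syk and Pira11 of the lists were not matched. At 10472117 to 15650518 counts, 3 counts are 0.195 to 0.270 CPM. Columns of per-sample values left unused numbered 0. Some list genes and promoters are not reported here.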

Additional observations from a re-analysis of the deposited data

How the results depend on the processing

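Of the 34 genes, the number called higher was 6 and stayed between 4 and 7 under the other tests, filters, scalings, transcript choice and looser threshold, was 3 when an absolute log2 fold change over 2 was also asked, and ranged from 0 to 5 with a library left out. The number called lower was 0 throughout. Over these settings, apart from libraries left out, adjusted p ran from 1.08e-14 to 0.0139 for C1qb and from 1.69e-07 to 0.0283 for C1qc, which stayed called. It ran from 6.78e-13 to 0.324 for C1qa, from 2.13e-08 to 0.229 for Mrc1, from 1.45e-07 to 0.522 for Tyrobp, from 0.000131 to 1 for Lyz2 and from 3.67e-05 to 0.0531 for Atp6v0d2. The members called thus varied more than their number. The exact test called the C1q genes and Atp6v0d2 but not Mrc1, Tyrobp or Lyz2, and DESeq2 called Atp6v0d2 but not C1qa. Genes called higher over the whole table numbered 430. That number was 179 by the exact test, 866 without a filter, 691 by the robust fit and 962 with the replicate block. Genes called lower numbered 94, and 153 by DESeq2, 29 by the exact test, 218 without a filter, 188 by the robust fit and 314 with the replicate block. With a library left out they ranged from 0 to 461 higher and from 0 to 94 lower.

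The macrophage median of 0.99 was 0.75 with a prior count of 2 and ranged from 0.53 to 1.85 with a library left out, and the osteoclast median of 0.11 ranged from −0.17 to 0.58. Directions of uncalled genes turned as follows with a library left out. The log2 fold change ranged from −0.47 to 2.41 for Acp5, −0.033 to 0.51 for Axl, −0.997 to 2.10 for Cd5l, −1.13 to 0.44 for Clec4f, −0.17 to 0.25 for Ctsk, −0.11 to 0.41 for Hmox1, −0.91 to 1.85 for Lyz1, −0.21 to 0.47 for Nfatc1, −1.26 to 1.02 for Siglec1, −0.32 to 0.17 for Slc40a1, −0.92 to 1.03 for Trem2. Ctsk was also −0.0098 with protein-coding transcripts only. The cause of these changes was not tested.

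The replicate numbers pair nothing in the labels beyond a shared number, and the deviations of same-numbered libraries correlated at 0.0433 over 14398 genes. With the replicate block, 7 of the members were called higher, Atp6v0d2 being the added one (adjusted p = 7.7e-05, edgeR).

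With 2 libraries per age, 1 library decides many values.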
